A study of Homo sapiens with 2 samples.

Results

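The MYC, MAX and MXD network was examined in SBC-3 cells, an adherent small cell lung cancer (SCLC) cell line, after transfection with #1 siHOTAIR or with siGFP. The members were MYC, MYCN and MYCL, their common partner MAX, the antagonists MXD1, MXD3, MXD4, MXI1 and MNT, and MLX, 10 of the 19061 genes that could be named on the array. They were found among the non-control spots as the probes whose RefSeq accession belonged to a member, with MYCL also known as MYCL1, which gave 19 probes and 42 spots. #1 siHOTAIR is an siRNA against the long noncoding RNA HOTAIR, and siGFP, directed against green fluorescent protein, was the control, so cells of both arms had been transfected. The comparison asked how transcripts differed after depletion of HOTAIR. Of the siRNAs against HOTAIR only #1 was put on an array. An effect of losing HOTAIR therefore cannot be told apart from any other effect of this siRNA. Each RNA was hybridized to 1 one-colour Agilent array, and both arrays lay on the same slide and were read in the same scan. Neither condition was replicated, so nothing was tested, and an effect of the siRNA cannot be told apart from one of its culture or its array. In a bulk culture, fewer cells of a kind and less RNA per cell cannot be told apart either.

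MYC, MYCN and MYCL are transcription factors of the basic helix-loop-helix leucine zipper class, which bind DNA as dimers with MAX at E-boxes and recruit activating cofactors to genes of growth, metabolism and ribosome production. MXD1, MXD3, MXD4, MXI1 and MNT also dimerize with MAX, occupy the same E-boxes and recruit the SIN3 corepressor with histone deacetylases. MLX stands in for MAX in a parallel branch, where it pairs with MXD1, MXD4, MNT and the glucose-responsive Mondo proteins MLXIP and MLXIPL. MYC, MYCN and MYCL are each known to be amplified in subsets of SCLC.

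Signals are intensities after background subtraction, and the level of a probe is the mean log2 signal of its spots against the 75th percentile of its array, which was 650.3 for #1 siHOTAIR and 629.9 for siGFP. Ratios are differences of these levels, #1 siHOTAIR minus siGFP, and a difference was counted from 2-fold (1 on the log2 scale). The SD beside a ratio is the measurement error within an array, taken from probes with 10 spots at a similar signal, and does not hold the spread between cultures. Signals of different probes depend on the probe and were not set against each other. HOTAIR itself was read from 1 spot, at 108 with #1 siHOTAIR and 244 with siGFP, a log2 ratio of -1.22 ± 0.21 (measurement SD), or 2.34-fold lower. This ratio stayed short of 2-fold with normexp background correction (-0.76) and without background correction (-0.73). The GAPDH probe had a log2 ratio of 0.00 and both ACTB probes lay between -0.05 and -0.02. Of the neuroendocrine SCLC markers, INSM1 and SYP were well above background on neither array. NEUROD1 was measured on both (213 and 372, log2 ratio -0.85), while CHGA (72.2 and 10.2, at least 2.44-fold higher) and NCAM1 (25.5 and 7.20) passed only with #1 siHOTAIR. NCAM1 rests on 1 of the 2 spots of this probe (67.8 in row 67, the other at 9.57), has no fold at its bound, and its other probes passed on neither array. YAP1 (log2 ratio -0.10) and REST (-0.10) passed on each of the arrays and POU2F3 on neither. Of 4 mesenchymal markers, VIM (0.11), COL1A2 (-0.04) and COL1A1 (0.96) passed on each array, and FN1 (24.0 and 57.2) passed with siGFP only and was at least 1.58-fold lower. Of 4 epithelial markers, KRT8 (0.10) and KRT18 (-0.44) passed on each array with their brighter probe, and CDH1 on neither. The dimmer probes of KRT8 and KRT18 passed with siGFP only. For KRT8 (31.5 and 54.0) the log2 ratio was -0.58 at its bound, opposite in sign to the brighter probe. For KRT18 (16.2 and 36.1) there was no fold at its bound. EPCAM (9.19 and 25.1) passed with siGFP only, from 1 of its 2 spots and with no fold at its bound. The part of these marker differences in the results below was not tested.

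The E-box CACGTG, which reads the same on both strands, was searched in promoters from RefSeq (GRCh38.p14), each running from 250 bases before to 50 after an annotated start. It was present in 7.26% of 35116 promoters and at 8.77% of 27305 genes. Among the members, 9 genes had a promoter entry and 3 of them, MXD4, MNT and MLX, held the motif. The sites of the 3 members are shown because they hold the motif that the network's own dimers bind, with the motif in capitals and 10 bases on each side, 5′ to 3′ on the strand of the gene.
MXD4, chr4:2262332-2262357, minus strand: gccgggccacCACGTGctgttgctaa
MNT, chr17:2401238-2401263, minus strand: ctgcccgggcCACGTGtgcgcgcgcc
MLX, chr17:42567040-42567065, plus strand: gggcgcgggtCACGTGggcacgccac
The first base of the motif lay at -238 of the start in MXD4, -193 in MNT and -50 in MLX. No CACGTG was found in the windows of MYCN, MYCL, MAX, MXD1, MXD3 and MXI1. MYC was the member without a promoter entry, so its promoter was not searched.

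Beside them stand sites of 4 target genes, chosen after their values were seen. ODC1, the rate-limiting enzyme of polyamine synthesis, and CDK4, a G1 kinase, are classical MYC targets. MYBBP1A, a nucleolar MYB-binding protein, had the largest ratio of the induced targets described below, and ARRDC4 is a target of MLX with the Mondo proteins.
ODC1, chr2:10448026-10448051, minus strand: gggccccgggCACGTGtgcggcgcgc
ODC1, chr2:10447992-10448017, minus strand: cctgcggagaCACGTGgtcgccgagc
CDK4, chr12:57752511-57752536, minus strand: gtcaagcggtCACGTGtgatagcaac
CDK4, chr12:57752491-57752516, minus strand: agcaacagatCACGTGgctgccatcg
CDK4, chr12:57752396-57752421, minus strand: gggtggcggtCACGTGcccagaacgt
MYBBP1A, chr17:4555342-4555367, minus strand: ggccggagcaCACGTGtttcgtgttt
ARRDC4, chr15:97960483-97960508, plus strand: acggcctgtgCACGTGcacgccggag
The log2 ratios of these 4 genes were -0.03 for ODC1, 0.06 for CDK4, 0.46 for ARRDC4 and 1.34 for MYBBP1A. Because the genes were chosen with their values known, the spread of these ratios says nothing about genes with the motif. The windows of NCL, NPM1, CAD and TXNIP were searched as well and held no CACGTG. Of the MYC-induced targets listed for this work, 47.3% of 74 genes with a promoter entry held the motif, against 12.5% of the 10396 such genes compared on the arrays. The motif was held by 16 of 30 nucleolar genes (53.3%) and 13 of 27 metabolic genes (48.1%). Among the cell cycle, translation and chaperone genes it was 6 of 17 (35.3%). For the repressed targets it was 1 of 9 (11.1%) and for the MLX and Mondo targets 2 of 7 (28.6%). In lists this small a single gene moves the share by much. Over all compared genes, the median log2 ratio was 0.05 for the 1295 with the motif and 0.01 for the 9101 without it. The genes with the motif also had the higher median level, 0.39 against -0.06 on the scaled log2 axis.

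Of the 19 member probes, 15 rose well above background on each of the arrays and 4 on neither, and no member spot carried an outlier flag. These 15 probes represented 9 of the 10 members, MYCN being the exception. None of them reached 2-fold in either direction, where 3.03% of the 21428 probes well above background on both arrays did. Among all 24117 probes compared, which include those well above background on 1 array only, the share was 7.4%. At 1.5-fold, 2 of the 15 member probes passed, 1 of MAX and 1 of MNT, beside 12.5% of the 21428. The log2 ratios of the 15 probes ran from -0.31 to 0.68 with a median of 0.18, against 0.03 for all probes of that class. Their median size regardless of sign was 0.31, against 0.21. Above 0 lay 9 of the 15 (60%), where 54.2% of all such probes did. With 1 probe per gene, the one of highest mean signal, 5 members were above 0 and 4 below, with a median of 0.07.

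**Figure D1:**
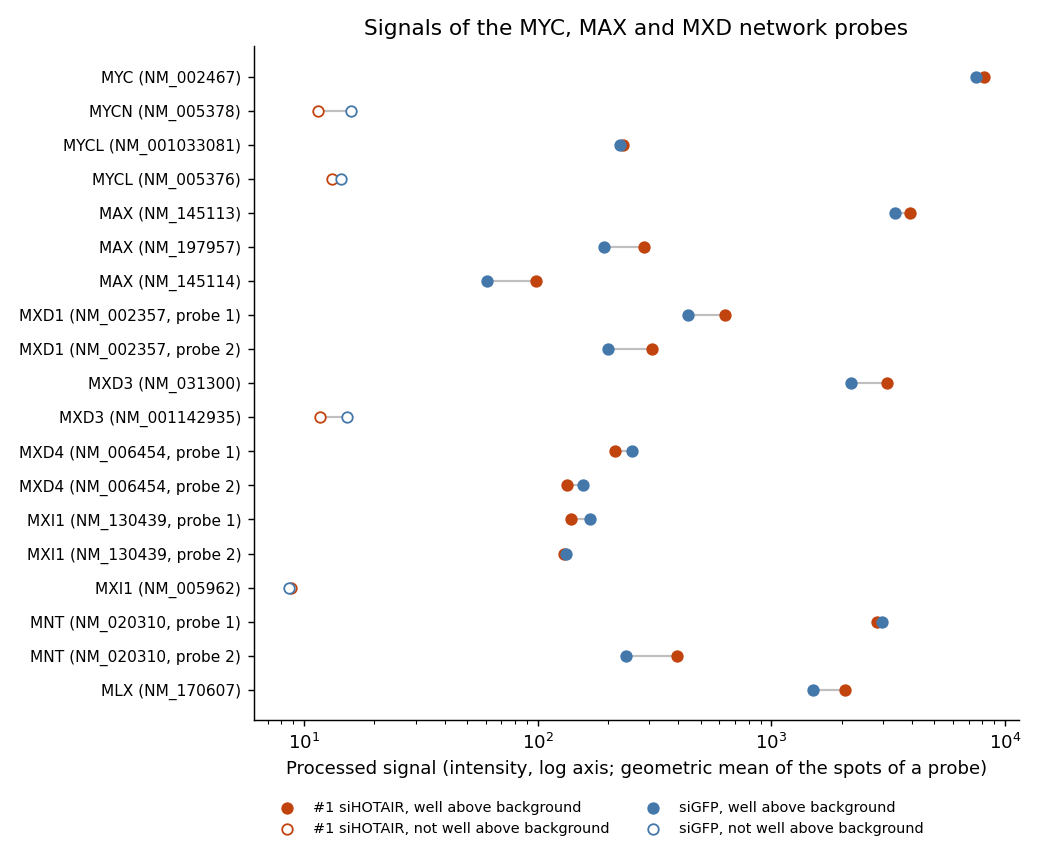
Processed signal (intensity, log axis) of the 19 probes of the 10 members on the #1 siHOTAIR array and the siGFP array, each point the geometric mean of the spots of 1 probe, with open points where the probe was not well above background. The 4 probes with open points lie under 20 on both arrays, and the pairs of the other probes lie close together.

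MYC was read most precisely of all members, because its probe (NM_002467) carried 10 spots on each array. The spots lay between 7942 and 8611, with a median of 8089, with #1 siHOTAIR and between 7185 and 7783, with a median of 7493, with siGFP. Before scaling, every #1 siHOTAIR spot was brighter than every siGFP spot, so the unscaled spots of the arrays did not overlap. The #1 siHOTAIR array was also the brighter one at its 75th percentile, and after scaling the spots did overlap, with log2 levels from 3.61 to 3.73 with #1 siHOTAIR and from 3.51 to 3.63 with siGFP. The scaled ratios of the 10 spot pairs ran from 0.01 to 0.16 with an SD of 0.04, and all 10 were above 0. The probe signal was 8146 with #1 siHOTAIR and 7528 with siGFP, a log2 ratio of 0.07 ± 0.02 (measurement SD), or 4.82% higher. The 10 spots are repeated readings of 1 RNA on each array and are not replicates of the condition. The ratio lay between 0.05 and 0.21 over 8 ways of scaling and background correction, the highest with the spike-in RNA.

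**Figure D2:**
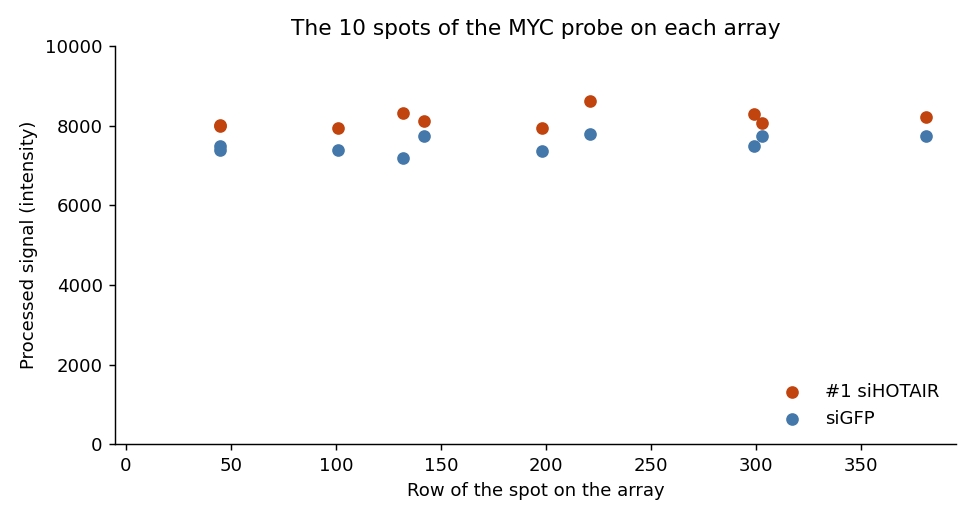
Processed signal (intensity, before scaling) of the 10 spots of the MYC probe on each array against the row of the spot on the array. Before scaling, the #1 siHOTAIR spots (7942 to 8611) all lie above the siGFP spots (7185 to 7783), whereas the scaled levels overlap.

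MYCN, the family member of neural and neuroendocrine tumours, was not well above background. Its spots read 9.46 and 13.9 with #1 siHOTAIR and 16.5 and 15.3 with siGFP, below the lowest signals well above background, which were 37.3 and 28.6 on these arrays. No ratio was taken from signals of this size. Signals this dim were offset between the arrays, with a median log2 ratio of 0.34 over the 18285 probes that neither array raised well above background. MYCL, first found as an amplified gene in SCLC, was well above background with the probe for NM_001033081. Its spots read 218 and 246 with #1 siHOTAIR and 232 and 219 with siGFP. The spots of the arrays overlapped, the spot ratios were -0.14 and 0.12, and the log2 ratio of -0.01 ± 0.09 (measurement SD) changed its sign with the scaling, from -0.03 to 0.13. The other MYCL probe, for NM_005376, was not well above background on either array (13.2 and 14.3).

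MAX, the obligate partner of MYC and of its antagonists, was read by 3 probes with different accessions, all of 2 spots and all above 0. The probe for NM_145113 read 3945 with #1 siHOTAIR and 3375 with siGFP, a log2 ratio of 0.18 ± 0.06 (measurement SD) with spot ratios of 0.16 and 0.20. For NM_197957 the signals were 286 and 193, with a log2 ratio of 0.52 ± 0.09 and spot ratios of 0.58 and 0.47. The third accession, NM_145114, read 98.2 and 61.0, a log2 ratio of 0.64 ± 0.20, or 1.56-fold. Its spots disagreed, however. The spot in row 231 read 93.5 and 42.8, a ratio of 1.08, whereas the spot in row 33 read 103 and 86.8, a ratio of 0.20. Without background correction the ratio of this dim probe was 0.24 and that of NM_197957 was 0.32, while NM_145113 gave 0.19. The probes of MAX thus shared a direction. The highest and the lowest lay 0.46 apart, with a measurement SD of 0.20 for that difference. That SD comes from other probes, however, and the siGFP spots of NM_145114 had an SD of 0.72 themselves. The gap of 0.46 was thus not larger than the spread of this probe's own spots. That spread does not cover the other 2 probes, whose spots did not overlap in ratio. NM_197957 was at 0.52 ± 0.09 (spots 0.58 and 0.47) and NM_145113 at 0.18 ± 0.06 (spots 0.16 and 0.20). The probes of MAX thus differed in the size of the ratio.

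MXD1 and MXD3, antagonists known from differentiating cells and from S phase respectively, both read higher with #1 siHOTAIR. The spots of the first MXD1 probe (NM_002357) had ratios of 0.52 and 0.42, with probe signals of 633 and 441 and a log2 ratio of 0.47 ± 0.09 (measurement SD). The second MXD1 probe, of 1 spot and of the same accession, read 307 and 200, a log2 ratio of 0.57 ± 0.13. The MXD1 probes thus lay 0.10 apart, within the measurement SD of 0.15. MXD3 (NM_031300) read 3122 with #1 siHOTAIR and 2204 with siGFP, 1.37-fold higher, with a log2 ratio of 0.46 ± 0.06 and spot ratios of 0.40 and 0.51. A further MXD3 probe, for NM_001142935, was not well above background on either array (11.8 and 15.3). These ratios kept their sign under all 8 scalings, between 0.38 and 0.71 for the MXD1 probes and between 0.42 and 0.60 for MXD3.

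MXD4 and MXI1 read lower with #1 siHOTAIR, by amounts nearer to the measurement error. MXD4 (NM_006454) had 2 probes of 1 spot each, at 215 and 253 for the first and 133 and 157 for the second. Their log2 ratios were both -0.28, with measurement SDs of 0.13 and 0.28. The MXI1 probe with 2 spots (NM_130439) read 139 and 167, a log2 ratio of -0.31 ± 0.15, and its spot ratios were -0.50 and -0.12. Both of its spots lay in rows 1 to 144 of the array. The second MXI1 probe for the same accession, of 1 spot in another row, read 130 and 132, a log2 ratio of -0.08 ± 0.28 whose sign changed with the spike-in RNA as the scale (0.06). The probe for NM_005962 was not well above background on either array (8.75 and 8.58).

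MNT, the broadly expressed antagonist that pairs with MAX or MLX, gave probes that opposed each other. Probe 1 read 2835 with #1 siHOTAIR and 2977 with siGFP, a log2 ratio of -0.12 ± 0.06 (measurement SD) with spot ratios of -0.15 and -0.08. Probe 2, matched to the same accession (NM_020310), read 396 and 240, 1.60-fold higher, with a log2 ratio of 0.68 ± 0.09 and spot ratios of 0.70 and 0.66. The probes differed by 0.80, with a measurement SD of 0.11 for that difference, so no single direction can be given for MNT. The sign of probe 1 changed with the spike-in RNA as the scale (0.02), and that of probe 2 kept its sign between 0.52 and 0.82. Both spots of probe 1 and 1 of the 2 spots of probe 2 lay in rows 1 to 144.

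**Figure D3:**
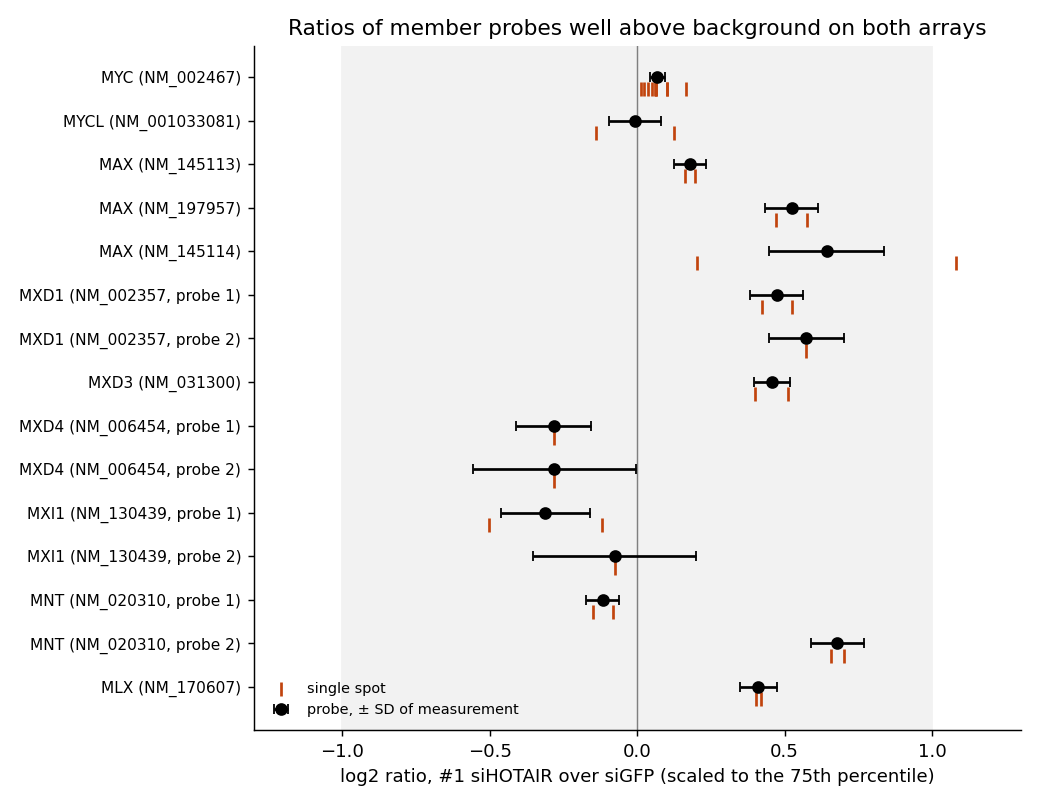
The log2 ratio (#1 siHOTAIR over siGFP, scaled to the 75th percentile) of the 15 member probes well above background on both arrays, with the measurement SD as bars, single spots as ticks and the range below 2-fold shaded. All 15 points lie in the shaded range, from -0.31 for MXI1 to 0.68 for MNT probe 2, and 1 spot of MAX (NM_145114) lies outside it at 1.08.

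MLX, the partner of the parallel branch, read higher with #1 siHOTAIR. Its probe (NM_170607) gave 2068 with #1 siHOTAIR and 1506 with siGFP, 1.33-fold, with a log2 ratio of 0.41 ± 0.06 (measurement SD). The spot ratios of 0.40 and 0.42 were close to each other, and the ratio stayed between 0.39 and 0.55 over the scalings. The partners outside the members gave no common direction. MLXIP, the Mondo protein of muscle and many other tissues, had 1 probe at -0.40 (874 and 1115) and 1 at 0.33 (282 and 218). MGA, a large MAX partner that represses germline genes, was at 0.15 (729 and 636) and 0.62 (81.8 and 51.7, measurement SD 0.28), each from 1 spot. MLXIPL was not well above background on either array.

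**Figure D4:**
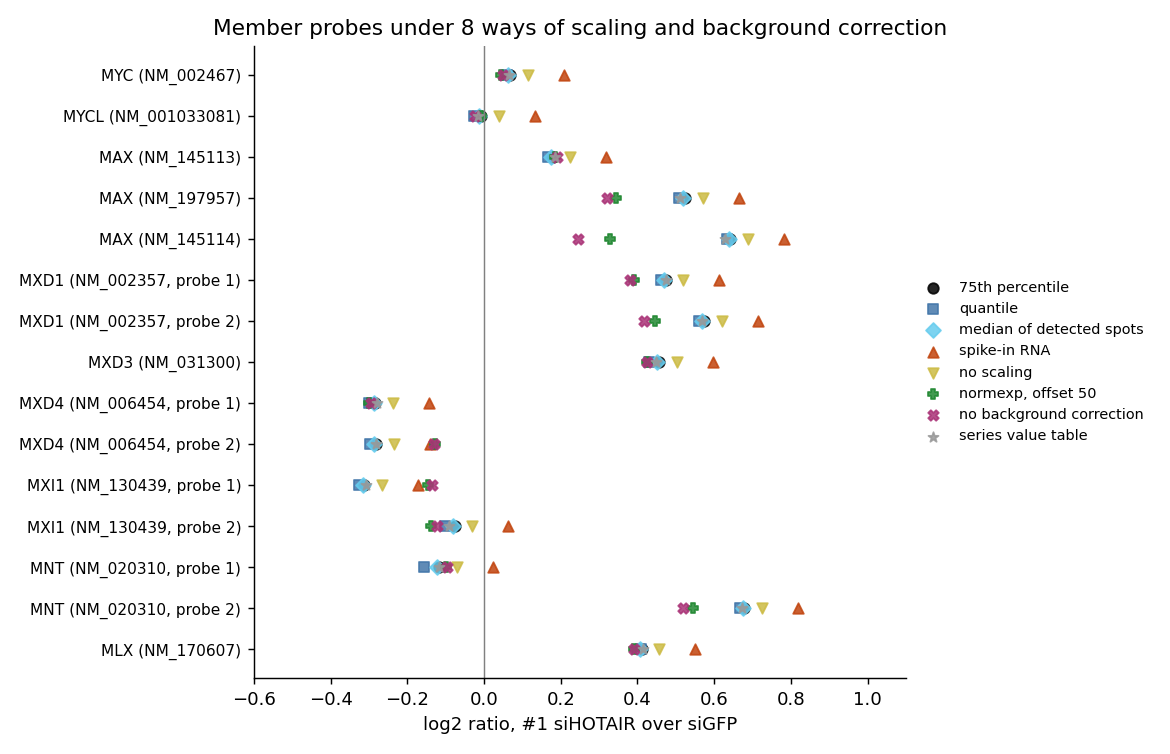
The log2 ratio (#1 siHOTAIR over siGFP) of the 15 member probes under 8 ways of scaling and background correction, 1 symbol for each. The spike-in RNA moved all probes up by 0.14, 12 of the 15 probes kept their sign, and MYCL, MXI1 probe 2 and MNT probe 1 crossed 0.

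The scaling shifted the members together with all other probes. With the spike-in RNA the median of all compared probes was 0.15 in place of 0.01, a shift of 0.14. Relative to the median under each setting all 15 member probes kept their sign. For the spike-in RNA, the median of detected probes and no scaling this was fixed in advance, because they move every probe by the same amount. Only quantile normalization and the other signals or background corrections could have altered such a sign. Rows 1 to 144 of the 384 rows held 37.5% of the non-control spots but 69.0% of the 787 spots, well above background on 1 array or both, that read at least 4-fold apart. Of the 42 member spots, 20 lay in these rows and 0 of the 42 were among those 787. For MYC, the 5 spots in these rows had a mean ratio of 0.07 and the other 5 a mean of 0.06.

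Targets of MLX with the Mondo proteins, genes of glucose and lipid handling, lay mostly above 0. Of 9 genes compared, 8 were above 0, 0 were at least 2-fold higher and 1 was at least 2-fold lower, with a median of 0.45 against 0.02 for all genes, of which 52.3% were above 0. Of all 13014 genes compared, 2.74% were at least 2-fold higher and 3.41% at least 2-fold lower. TXNIP, the thioredoxin-interacting brake on glucose uptake, read 959 and 1009 in its spots with #1 siHOTAIR and 559 and 614 with siGFP. Its log2 ratio was 0.70 ± 0.08 (measurement SD). ELOVL6, a fatty acid elongase, was at 0.72 from 1 spot (949 and 558). ACACA, the cytosolic acetyl-CoA carboxylase, and SCD, a fatty acid desaturase, were at 0.13 and 0.10, with a second ACACA probe at 0.28. ACACB, the mitochondrial acetyl-CoA carboxylase, read 31.5 with #1 siHOTAIR and 79.5 with siGFP and was at least 2.20-fold lower, from a probe well above background with siGFP only. The remaining genes were KLF10 at 0.53, ARRDC4 at 0.46, FASN at 0.45 and PKLR. PKLR was well above background on the siGFP array only (24.3 and 19.6) and was counted above 0, at 0.26 ± 0.25 (measurement SD). The 7 genes measured on both arrays had a median of 0.46. The median dropped to 0.26 without background correction and to 0.28 when only spots outside rows 1 to 144 were used. Both TXNIP spots and the ELOVL6 spot lay within these rows, so that median is over fewer genes and without TXNIP and ELOVL6.

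Induced targets of MYC were described in 3 lists, whose 86 compared genes had a median of 0.05, with 52 above 0 and 34 below. Only MYBBP1A among them reached 2-fold, against the shares over all genes given above. Nucleolar and ribosome biogenesis genes had 28 of 37 above 0 and a median of 0.12, beside 52.3% and 0.02 for all genes compared. MYBBP1A read 1710 and 1652 in its spots with #1 siHOTAIR and 633 and 657 with siGFP. Its log2 ratio of 1.34 ± 0.06 (measurement SD) was 2.53-fold. NOP2, a methyltransferase of ribosomal RNA, was at 0.52, while MRTO4, a ribosome assembly factor, was at -0.48 and NPM1, the abundant nucleolar chaperone, at -0.21, with its other probes at -0.25 and -0.19.

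Nucleotide, polyamine and carbon metabolism genes had 14 of 31 above 0, with a median of -0.03 and 0 at 2-fold. The shares over all genes compared were 52.3% above 0, 2.74% at least 2-fold higher and 3.41% at least 2-fold lower. The highest were DHODH (0.32), of pyrimidine synthesis, and GART (0.30, with a second probe at 0.18), of purine synthesis. ENO1, a glycolytic enolase, was at -0.21. Cell cycle, translation and chaperone genes had 10 of 18 above 0, with a median of 0.03 and 0 at 2-fold. ID2, an inhibitor of basic helix-loop-helix factors, read 17560 and 11237, a log2 ratio of 0.60 ± 0.05, and its second probe was at 0.63. E2F1 (0.33, from 10 spots) and E2F2 (-0.83, with signals of 861 and 1478), both activators of S phase genes, lay on opposite sides of 0, and CKS2, a subunit of cyclin-dependent kinases, was at -0.25. CCND2 was not well above background on either array.

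Targets that MYC represses were split evenly, with 6 of 12 above 0 and 6 below, a median of 0.03, and 1 gene past 2-fold in each direction. Among all genes compared, 52.3% were above 0, 2.74% at least 2-fold higher and 3.41% at least 2-fold lower. CDKN1B, the kinase inhibitor p27, was at 0.46, with a second probe of 10 spots at 0.44 (1234 and 879). CDKN1A, the inhibitor p21, was at -0.44 (256 and 337) and CDKN1C, the inhibitor p57, at -0.48 (2642 and 3561). CEBPA, a differentiation factor, was at 0.49. Both genes past 2-fold were dim. CDKN2B, the inhibitor p15, read 109 and 7.75 in its spots with #1 siHOTAIR and 6.39 and 6.19 with siGFP, so it rests on 1 spot, in row 52, and has no fold at its bound. GAS1, a growth arrest gene, read 23.8 with #1 siHOTAIR and 48.0 with siGFP and was at least 1.33-fold lower. PDGFRB was not well above background on either array.

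**Figure D5:**
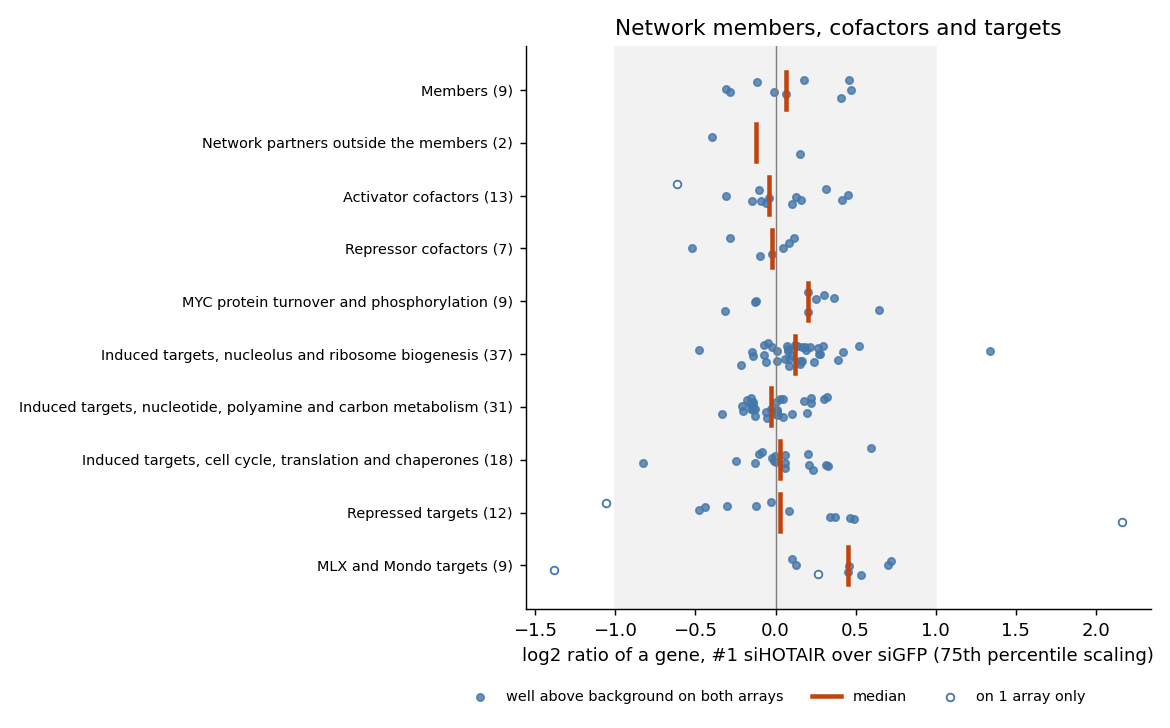
The log2 ratio (#1 siHOTAIR over siGFP, 75th percentile scaling) of each compared gene of the members, their cofactors and their targets, with the median of each list as a bar, open points for genes well above background on 1 array only, and the range below 2-fold shaded. The medians lie between -0.12 and 0.45, and the points outside the shaded range are MYBBP1A at 1.34, CDKN2B at 2.16, GAS1 at -1.06 and ACACB at -1.38.

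With 1 probe per gene, no cofactor reached 2-fold, where 2.74% of all genes compared were at least 2-fold higher and 3.41% lower. Of 13 activator cofactors, 6 were above 0, with a median of -0.04, beside 52.3% and 0.02 for all genes compared. BPTF, a nucleosome remodelling subunit, was at 0.45, whereas KAT2A, an acetyltransferase, was at -0.31 and WDR5, a scaffold that binds MYC, at -0.15. HCFC1 was well above background on the siGFP array only. Of 7 repressor cofactors through which MXD proteins and MNT act, 3 were above 0, with a median of -0.02. NCOR1, a nuclear receptor corepressor, was at 0.09, with further probes at 0.35 (280 and 212) and, from 1 spot well above background with #1 siHOTAIR only, at 57.4 and 23.7, at least 1.94-fold higher. SAP30, a subunit of the SIN3 complex, was read from 10 spots at 5923 with #1 siHOTAIR and 8253 with siGFP, a log2 ratio of -0.52 ± 0.03 (measurement SD), and the deacetylase HDAC2, also of 10 spots, was at -0.28 (5696 and 6708). A dim second HDAC2 probe of the same accession lay on the other side of 0, at 0.54 ± 0.20 (86.3 and 57.5), so the HDAC2 probes opposed each other.

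Regulators of MYC protein turnover and phosphorylation had 6 of 9 genes above 0 and a median of 0.20, with 0 at 2-fold. All genes compared had a median of 0.02, with 52.3% above 0, 2.74% at least 2-fold higher and 3.41% at least 2-fold lower. HUWE1, a ubiquitin ligase of MYC, was at 0.65 (480 and 297), with a second probe at 0.20. AURKA, a kinase that stabilizes MYCN, was at 0.36 (3463 and 2605). The ubiquitin ligase STUB1 was at -0.32 (7486 and 9041). CIP2A and USP28 were not well above background on either array. The arrays measure transcripts, so the amount of MYC protein was not measured.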

How the data were processed

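The authors hybridized Cy3-labelled RNA to SurePrint G3 human arrays and read the spots with Agilent Feature Extraction 10.10.1.1. The intensity used here is the processed signal of the scanner output, background-subtracted and corrected for trends across the array. The deposited values were not normalized between the arrays. The deposited value table of the series holds the background-subtracted intensity (largest difference 0).

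From there, log2 signals were scaled to the 75th percentile of the 58717 non-control spots of each array. Outlier spots (393 with #1 siHOTAIR, 375 with siGFP) were left out and spots of a probe averaged. Probes entered the comparison if 50% or more of their spots exceeded the background by the scanner software's own flag on 1 array or both (24117 of 42402). Signals well above background were found for 52.1% and 55.3% of the probes, and this and the number of arrays limit the precision. Where only 1 array measured a probe, the dim array was given its lowest well-measured spot signal, unless the probe was brighter than that, and the fold is given as "at least". A gene is represented by its probe of highest mean signal.

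Gene names came from matching unversioned RefSeq accessions to a table of GRCh38.p14. All 10 members were named with every probe, HOTAIR, ACTB and GAPDH as check genes, and of each list the genes past 2-fold and the 2 highest and 2 lowest well above background on both arrays. Some genes that this rule names are not reported here. The second probes of named genes and the remaining MLX targets were added after their values were seen. The members and lists were chosen with earlier results of these data known. The alternatives for scaling were quantile normalization, spike-in RNA, the median of detected probes and no scaling. Others were normexp with an offset of 50, no background correction, the value table with a floor of 10, other filters, thresholds of 1.5-fold and 3-fold, the median over probes, outlier spots kept and dim signals at their bound. The use of only spots outside rows 1 to 144 was added after the data had been seen. For normexp and for uncorrected signals the files gave the median pixel signal, which replaced the mean. The counting of 2-fold differences was tested on simulated data, which bears on the code alone and not on the spread between cultures. Python 3.11.15 with pandas 2.3.3, numpy 2.4.6 and matplotlib 3.10.9, and R 4.3.3 with limma 3.58.1 were used. The p-value step named in the study's methods was not run, since there was no replicate.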

Additional observations from a re-analysis of the deposited data

How the results depend on the processing

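The number of members with a probe at least 2-fold higher was 0, but 2 (MAX and MNT) at a threshold of 1.5-fold and 1 (MAX, NM_145114, left with its spot in row 231) with only spots outside rows 1 to 144. The median over the members of 0.07 became 0.21 with the spike-in RNA, 0.28 with the median over the probes of a gene and 0.20 outside rows 1 to 144. Outside these rows MNT was represented by probe 2 alone, at 0.66, since both spots of probe 1 lie within them. With the spike-in RNA, the medians were 0.19 for the induced targets, 0.17 for the repressed targets and 0.59 for the MLX and Mondo targets. The median of the MLX and Mondo targets was 0.28 with normexp, 0.26 without background correction and 0.28 outside rows 1 to 144, where TXNIP and ELOVL6 have no spot. The log2 ratio of HOTAIR was -0.76 with normexp and -0.73 without background correction, which add an offset of 50 or leave the background in, and it is then no longer past 2-fold. MYCN had a ratio only when the filter on dim signals was dropped and this rests on signals near the background. Of the recomputed ratios of single members and medians of the other lists, 178 moved by less than their measurement SD (for a list, the median SD of its genes) and 30 by more. Part of the 178 was fixed in advance. No member spot was an outlier, and the probe representing each measured member passed on both arrays. Keeping outlier spots, changing the filter or setting dim signals at their bound thus returned the same member ratios. Leaving out a replicate was not possible with 1 array per condition. No paired analysis was possible because each condition had 1 array. Depth in the sense of signal over background limits MYCN, the second MYCL and MXD3 probes and MXI1 (NM_005962).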
